A study of Mus musculus with 12 samples.

Results

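The 10 genes described here carry out the NRF2 antioxidant response and make or recycle glutathione. They were taken as a named list (Nfe2l2, Keap1, Nqo1, Hmox1, Gclc, Gclm, Srxn1, Gsr, Gss and G6pdx) out of 13465 genes, by summing 22 deposited transcripts that carry their Ensembl identifiers. On GRCm38 (GENCODE M21) the regulator genes are Nfe2l2 at chr2:75675513-75704641 (minus strand) and Keap1 at chr9:21229730-21239361 (minus strand). The stress targets are Nqo1 at chr8:107388225-107403206 (minus strand), Hmox1 at chr8:75093621-75100589 (plus strand) and Srxn1 at chr2:152105516-152111376 (plus strand). The synthesis genes are Gclc at chr9:77754535-77794485 (plus strand), Gclm at chr3:122245557-122270732 (plus strand) and Gss at chr2:155563181-155592810 (minus strand), and the recycling genes are Gsr at chr8:33652523-33698163 (plus strand) and G6pdx at chrX:74409483-74429194 (minus strand). All 10 were measured and all 10 passed the filter on low values, which kept 12469 genes. RNA came from mouse renal cortex in 4 groups of 3 libraries. CKO IRI and WT IRI kidneys were made ischemic on both sides for 30 min and then reperfused for 48 h (ischemia-reperfusion injury, IRI), and CKO sham and WT sham kidneys had sham surgery. CKO mice lacked GPX3, the secreted glutathione peroxidase, in renal tubular epithelial cells alone, and WT mice were wild type. The Cre driver, strain, sex and age of the mice are not stated in the labels. Since no label ties a library to its own mouse, the p-values below reflect library-to-library spread, which may in part be technical.

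NRF2, encoded by Nfe2l2, is a transcription factor that KEAP1 holds for ubiquitination and breakdown in unstressed cells. Oxidants and electrophiles modify cysteines of KEAP1, after which NRF2 accumulates, pairs with a small MAF protein and binds antioxidant response elements (AREs) near its target genes. Its targets include quinone reductase (Nqo1), heme oxygenase (Hmox1), sulfiredoxin (Srxn1) and the enzymes of glutathione synthesis. Because much of this control acts on the NRF2 protein, the level of Nfe2l2 RNA is not a measure of NRF2 activity. Glutathione is made in sequence by glutamate-cysteine ligase, whose catalytic subunit is GCLC and modifier subunit GCLM, and by glutathione synthetase (GSS). Glutathione reductase (GSR) returns the oxidized form to the reduced form with NADPH, which glucose-6-phosphate dehydrogenase (G6pdx) supplies from the pentose phosphate pathway.

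Promoters of 4 members are shown because their RNA levels bear on the comparisons below: G6pdx and Nqo1 passed the test after injury, Srxn1 reached the largest fold of any member in a single library, and Gclm encodes the partner of the Gclc product. Each is the 250 bases before the RefSeq start on GRCm38.p6, written 5′ to 3′ on the gene's strand, at chrX:74428881-74429130, minus strand for G6pdx, chr8:107403206-107403455, minus strand for Nqo1, chr2:152105274-152105523, plus strand for Srxn1 and chr3:122245307-122245556, plus strand for Gclm. Capitals mark matches, on either strand, to the ARE core TGACNNNGC or to the AP-1 element TGANTCA.
G6pdx: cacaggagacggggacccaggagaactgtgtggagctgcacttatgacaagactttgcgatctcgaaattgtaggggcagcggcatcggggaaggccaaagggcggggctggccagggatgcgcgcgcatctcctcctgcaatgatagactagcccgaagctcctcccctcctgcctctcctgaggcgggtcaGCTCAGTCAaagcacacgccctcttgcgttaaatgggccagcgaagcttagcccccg
Nqo1: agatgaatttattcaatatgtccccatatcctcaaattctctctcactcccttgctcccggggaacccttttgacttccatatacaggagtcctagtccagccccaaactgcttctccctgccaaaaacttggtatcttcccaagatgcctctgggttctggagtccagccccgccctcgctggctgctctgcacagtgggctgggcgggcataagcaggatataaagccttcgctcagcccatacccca
Srxn1: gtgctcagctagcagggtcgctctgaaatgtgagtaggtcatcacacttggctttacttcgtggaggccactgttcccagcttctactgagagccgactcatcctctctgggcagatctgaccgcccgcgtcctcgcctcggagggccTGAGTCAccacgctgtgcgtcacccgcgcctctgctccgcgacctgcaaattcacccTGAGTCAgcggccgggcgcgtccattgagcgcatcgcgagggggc
Gclm: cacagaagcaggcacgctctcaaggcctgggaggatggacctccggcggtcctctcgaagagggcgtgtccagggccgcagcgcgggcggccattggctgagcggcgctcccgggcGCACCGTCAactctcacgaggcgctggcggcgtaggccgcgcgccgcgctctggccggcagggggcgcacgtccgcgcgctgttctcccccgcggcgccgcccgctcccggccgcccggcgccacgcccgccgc
The ARE core matched on the minus strand in G6pdx, from base -57 to -49 relative to the start, and in Gclm, from base -134 to -126. In Srxn1 the AP-1 element matched at bases -102 to -96 and -45 to -39, and the Nqo1 window held neither motif. RefSeq promoters were found for 7 of the 10 members, and the ARE core also matched in that of Nfe2l2, so that 3 of 7 held it, against 10.2% of 32851 promoter windows of the same length. The AP-1 element was in 1 of 7, against 6.75% of windows. A match is a run of letters and was not tested as a binding site, and these windows end 250 bases from the start.

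Libraries summed to between 391002 and 422328 FPKM (fragments per kilobase of transcript, scaled to library size), with unknown read depth. Replicate spread was largest after injury, at a median over genes of 0.227 (SD, log2) in CKO IRI and 0.274 in WT IRI, against 0.168 in CKO sham and 0.098 in WT sham. The targeted gene, Gpx3, had 3723, 3025 and 2779 FPKM in CKO IRI 7, 15 and 29, against 2788, 3568 and 1075 FPKM in WT IRI 13, 24 and 49. In sham kidneys it had 2501, 3037 and 3299 FPKM in CKO sham 1, 2 and 3, against 5664, 4476 and 5371 FPKM in WT sham 1, 2 and 3. Gpx3 therefore did not overlap between the genotype labels in sham libraries, as held for 28.4% of all genes in either direction. By the limma test described below, this sham difference was -0.81 (log2, limma adjusted p = 0.135) and did not pass. After injury the labels overlapped. The change of Gpx3 with injury was -1.22 in WT (limma adjusted p = 0.0118) and 0.11 in CKO (0.871). Differences between genotypes after injury are therefore given for libraries as labelled. The labels do not state which part of Gpx3 was removed. Kidney markers were abundant (10 proximal tubule genes summed to 9850 FPKM or more in every sham library), whereas Comp, the one cartilage and joint marker of 6 with values, stayed at 1.63 FPKM or below. The labels' extraction text speaks of joint capsule.

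In uninjured wild-type cortex the enzymes of glutathione synthesis were the most abundant members on the FPKM scale, which is per transcript length. Gclc averaged 165 ± 7.88 FPKM and Gss 149 ± 15.7 FPKM in WT sham (SD, n = 3 each), and the 3 libraries of these genes overlapped. Gsr followed at 74.7 ± 6.96 FPKM and Nfe2l2 at 45.2 ± 1.60 FPKM (SD, n = 3 each), both separate from their neighbours. Gclm (32.1 ± 2.68 FPKM), Srxn1 (27.0 ± 3.42 FPKM), Hmox1 (25.9 ± 6.67 FPKM) and Nqo1 (24.8 ± 1.87 FPKM) lay close together. The lowest Gclm library and the highest Srxn1 library both had 29.6 FPKM, and Srxn1, Hmox1 and Nqo1 overlapped each other. G6pdx averaged 14.8 ± 0.26 FPKM and Keap1 13.3 ± 1.34 FPKM, the lowest of the 10, and their libraries did not overlap.

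**Figure D1:**
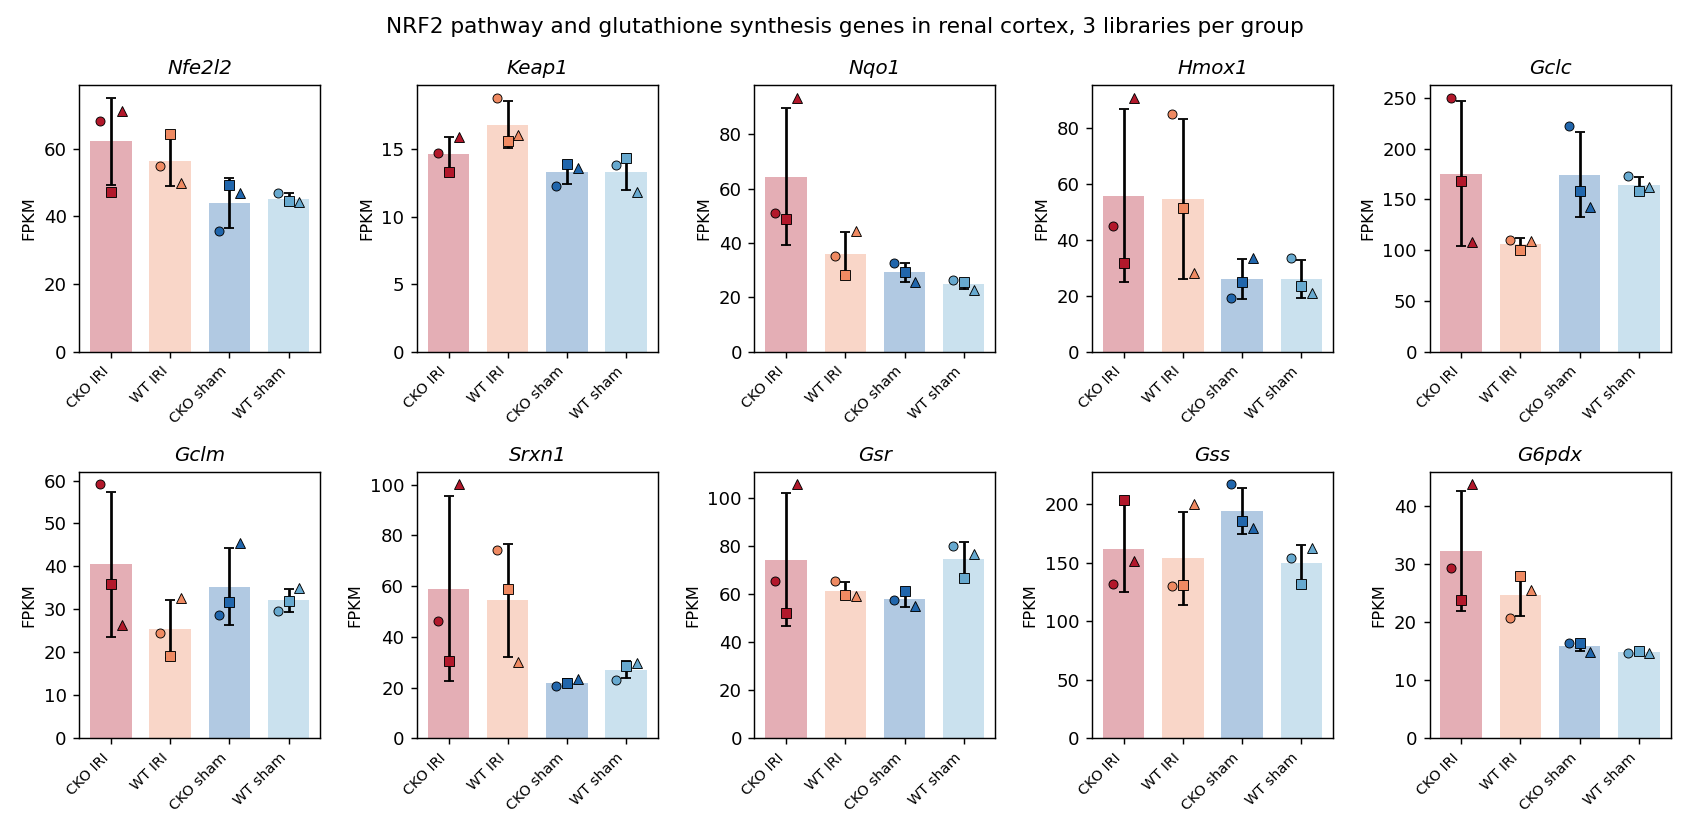
FPKM of the 10 genes in each group (bars, mean; error bars, SD; points, libraries, with circle, square and triangle for the libraries of a group in rising order of their number). G6pdx and Srxn1 stood higher in all 6 injured libraries than in any sham library, while Gclc was high or low in CKO IRI depending on the library.

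After injury G6pdx, the NADPH enzyme, rose in both genotypes and Nqo1 rose in CKO, and no other member passed the test within a genotype. Differences of Srxn1 and Hmox1 were positive in both genotypes, and those of Gclc, Gclm and Gss lay between -0.63 and 0.15 on the log2 scale. The test was limma on log2(FPKM + 1) with Benjamini-Hochberg adjustment over all 12469 genes and a threshold of 0.05, and every log2 change below is on that scale. G6pdx makes NADPH at the entry of the pentose phosphate pathway. It had 29.2, 23.7 and 43.7 FPKM in CKO IRI 7, 15 and 29, against 16.4, 16.4 and 14.9 FPKM in CKO sham 1, 2 and 3. The WT IRI libraries 13, 24 and 49 had 20.7, 27.9 and 25.5 FPKM, against 14.6, 15.1 and 14.6 FPKM in WT sham 1, 2 and 3. Every injured library stood above every sham library in both genotypes. The log2 change was 0.93 in CKO (SE 0.17, limma adjusted p = 0.00867) and 0.70 in WT (SE 0.18, limma adjusted p = 0.0122). The WT call was lost without WT IRI 24 (limma adjusted p = 0.127). The CKO call was lost when CKO IRI 7 (limma adjusted p = 0.0517) or CKO sham 3 (0.0533) was left out, or with only these groups fitted (0.06).

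Nqo1, the quinone reductase and a standard readout of NRF2, had 51.0, 48.7 and 93.5 FPKM in CKO IRI 7, 15 and 29, against 32.7, 29.2 and 25.5 FPKM in CKO sham 1, 2 and 3. It had 35.2, 28.1 and 44.5 FPKM in WT IRI 13, 24 and 49, against 26.2, 25.6 and 22.7 FPKM in WT sham 1, 2 and 3. Injured and sham libraries did not overlap in either genotype, though WT IRI 24 exceeded the highest WT sham library by little. Nqo1 rose by 1.06 (log2, SE 0.22, limma adjusted p = 0.0158) in CKO, while the difference in WT was 0.49 (SE 0.23, limma adjusted p = 0.117). The rise in CKO was not called without CKO IRI 7 (limma adjusted p = 0.0601), CKO sham 2 (0.0681) or CKO sham 3 (0.0845), or with only these groups fitted (0.0677). In WT the adjusted p was 0.0451 without CKO IRI 29, a library that enters that comparison only through the shared fit.

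Srxn1 encodes sulfiredoxin, which repairs overoxidized peroxiredoxins. It had 46.3, 30.5 and 100.1 FPKM in CKO IRI 7, 15 and 29, against 20.5, 21.8 and 23.3 FPKM in CKO sham 1, 2 and 3. The values were 74.2, 58.8 and 30.0 FPKM in WT IRI 13, 24 and 49, against 23.1, 28.4 and 29.6 FPKM in WT sham 1, 2 and 3. The groups did not overlap in either genotype, but CKO IRI 15 and WT IRI 49 lay close to the sham values. Srxn1 differed by 1.22 (log2, SE 0.35, limma adjusted p = 0.0557) in CKO and by 0.89 (SE 0.36, limma adjusted p = 0.0773) in WT, and neither passed. It passed in CKO without CKO IRI 15 (1.60, limma adjusted p = 0.0156), CKO sham 1 (0.0497) or WT IRI 49 (0.0444). It passed in WT without WT IRI 49 (1.27, limma adjusted p = 0.0328) or CKO IRI 29 (0.0314).

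Hmox1, which breaks heme down to biliverdin, iron and carbon monoxide, varied widely among injured libraries. It had 44.9, 31.7 and 90.8 FPKM in CKO IRI 7, 15 and 29, against 19.2, 25.0 and 33.6 FPKM in CKO sham 1, 2 and 3. It had 84.9, 51.2 and 27.9 FPKM in WT IRI 13, 24 and 49, against 33.5, 23.4 and 20.9 FPKM in WT sham 1, 2 and 3. Injured and sham libraries overlapped in both genotypes, through CKO IRI 15 and WT IRI 49. The differences of 0.97 in CKO (SE 0.42, limma adjusted p = 0.186) and 0.94 in WT (SE 0.44, limma adjusted p = 0.119) did not pass. Macrophages are rich in HMOX1, so markers of macrophages and monocytes are given beside it. Of 12 such markers 11 had values, and they summed to 214, 237 and 154 FPKM in CKO IRI 7, 15 and 29, against 136 to 199 FPKM in CKO sham. They summed to 273, 129 and 312 FPKM in WT IRI 13, 24 and 49, against 109 to 122 FPKM in WT sham. In WT 4 of 11 were called higher and in CKO none, beside 23.5% and 6.60% of all genes. The macrophage sum was largest in CKO IRI 15 and WT IRI 49, and Hmox1 in CKO IRI 29 and WT IRI 13. Single markers differed in order: Itgam had 1.45, 0 and 2.02 FPKM in CKO IRI 7, 15 and 29 and 4.28, 1.09 and 0.322 FPKM in WT IRI 13, 24 and 49, the order of Hmox1 in both groups. Cd68 was highest in CKO IRI 29, at 17.8 FPKM, and in WT IRI 49, at 12.5 FPKM. All the other markers with values were lowest in CKO IRI 29, where Hmox1 was highest. Among them Csf1r had 14.7, 22.6 and 5.72 FPKM and C1qa 31.4, 43.9 and 25.6 FPKM in CKO IRI 7, 15 and 29. The part of macrophage RNA in Hmox1 was not tested. Whether fewer cells of a type or less RNA per cell underlies a difference cannot be told apart in bulk RNA.

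Neither the transcription factor nor its inhibitor passed the test in either genotype. Nfe2l2 had 68.1, 47.3 and 71.1 FPKM in CKO IRI 7, 15 and 29, against 35.5, 49.3 and 46.9 FPKM in CKO sham 1, 2 and 3. It had 54.9, 64.4 and 49.96 FPKM in WT IRI 13, 24 and 49, against 47.0, 44.4 and 44.1 FPKM in WT sham 1, 2 and 3. The groups overlapped in CKO through CKO IRI 15 and did not overlap in WT. Nfe2l2 differed by 0.48 (log2, SE 0.17, limma adjusted p = 0.111) in CKO and by 0.31 (SE 0.18, limma adjusted p = 0.205) in WT. Without CKO IRI 15 the CKO difference passed (0.67, limma adjusted p = 0.0314). Keap1, the inhibitor, averaged 14.6 ± 1.27 FPKM in CKO IRI and 13.3 ± 0.89 FPKM in CKO sham, a difference of 0.13 (limma adjusted p = 0.616). It averaged 16.8 ± 1.73 FPKM in WT IRI and 13.3 ± 1.34 FPKM in WT sham, a difference of 0.32 (limma adjusted p = 0.115), with no overlap between the WT groups.

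Gclc and Gclm, the subunits of the enzyme that limits glutathione synthesis, did not pass the test in either genotype. Among injured CKO libraries the highest value was 2.33 times the lowest for Gclc and 2.24 times for Gclm, less than for Srxn1 (3.28 times) and Hmox1 (2.87 times). Gclc had 250, 168 and 108 FPKM in CKO IRI 7, 15 and 29, against 222, 158 and 143 FPKM in CKO sham 1, 2 and 3. It had 110, 99.8 and 109 FPKM in WT IRI 13, 24 and 49, against 173, 158 and 162 FPKM in WT sham 1, 2 and 3. All 3 WT IRI libraries lay below all 3 WT sham libraries, whereas the CKO IRI libraries spanned the CKO sham range and beyond it on both sides. The WT difference was -0.63 (log2, SE 0.26, limma adjusted p = 0.083) and the CKO difference -0.05 (SE 0.25, limma adjusted p = 0.937). The WT difference passed with only the WT groups fitted (limma adjusted p = 0.00982), after trimmed-mean scaling (-0.77, 0.0464), and without CKO IRI 7 (0.0371) or CKO IRI 29 (0.0471), which enter through the shared fit.

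Gclm had 59.1, 36.0 and 26.3 FPKM in CKO IRI 7, 15 and 29, against 28.6, 31.7 and 45.4 FPKM in CKO sham 1, 2 and 3. It had 24.6, 19.1 and 32.6 FPKM in WT IRI 13, 24 and 49, against 29.6, 31.8 and 34.9 FPKM in WT sham 1, 2 and 3. The groups overlapped in both genotypes, and the differences of 0.15 in CKO (SE 0.27, limma adjusted p = 0.791) and -0.35 in WT (SE 0.28, limma adjusted p = 0.354) did not pass. The ratio of Gclc to Gclm FPKM was 4.23, 4.68 and 4.08 in CKO IRI 7, 15 and 29, against 7.76, 4.99 and 3.14 in CKO sham 1, 2 and 3. It was 4.47, 5.23 and 3.35 in WT IRI 13, 24 and 49, against 5.86, 4.97 and 4.65 in WT sham 1, 2 and 3. The catalytic subunit's RNA was thus the more abundant in all 12 libraries.

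Gss, which adds glycine to complete glutathione, averaged 162 ± 37.0 FPKM in CKO IRI and 194 ± 19.9 FPKM in CKO sham, and 154 ± 39.9 FPKM in WT IRI against 149 ± 15.7 FPKM in WT sham (SD, n = 3 each). Its differences of -0.28 in CKO (limma adjusted p = 0.422) and 0.02 in WT (limma adjusted p = 0.956) did not pass, and the WT value was -0.13 after trimmed-mean scaling. Gsr, which regenerates reduced glutathione, had 65.5, 52.2 and 105.9 FPKM in CKO IRI 7, 15 and 29, against 57.5, 61.5 and 55.0 FPKM in CKO sham 1, 2 and 3. It had 65.6, 59.6 and 59.5 FPKM in WT IRI 13, 24 and 49, against 80.4, 66.9 and 76.8 FPKM in WT sham 1, 2 and 3. Gsr in CKO IRI 29 was the highest value of all 12 libraries, and the WT groups did not overlap, with injury lower. The differences were 0.30 in CKO (SE 0.20, limma adjusted p = 0.414) and -0.27 in WT (SE 0.21, limma adjusted p = 0.342).

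**Figure D2:**
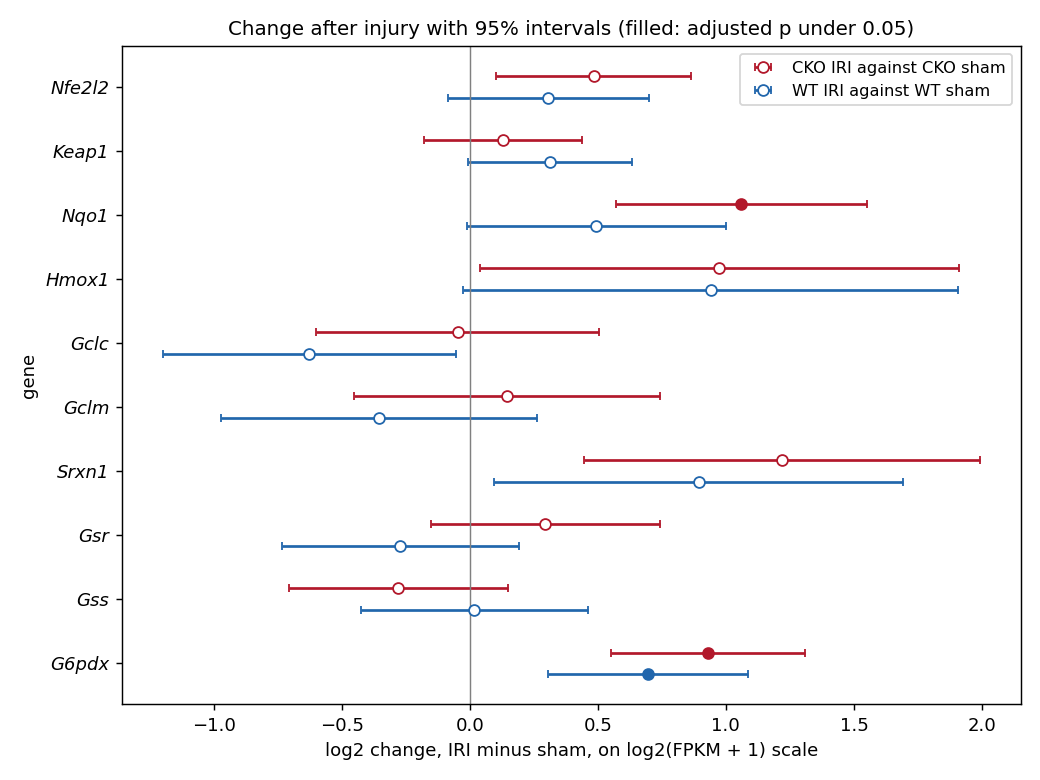
Log2 change after injury (x axis, IRI minus sham on the log2(FPKM + 1) scale) for each gene (y axis), CKO in red above WT in blue, with 95% intervals. Filled points passed at adjusted p under 0.05, which were G6pdx in both genotypes and Nqo1 in CKO.

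Counted together, 2 of 10 members were called higher and none lower in CKO, beside 6.60% of all tested genes called higher and 2.02% lower. In WT 1 of 10 was called higher and none lower, where 23.5% of all genes were called higher and 11.8% lower. The members' median log2 change was 0.39 in CKO and 0.31 in WT, beside medians of 0.08 and 0.12 over all tested genes. Groups did not overlap for 3 members (all higher) in CKO, where 21.4% of all genes were higher and 10.1% lower without overlap. In WT 5 members were higher and 2 lower without overlap, where 35.2% and 19.5% of all genes were. Quantile normalization moved the WT median of all genes to -0.02 and trimmed-mean scaling to 0.00, and the members' WT median to 0.21 and 0.17.

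Averaging the injury effect over both genotypes, a comparison added after the values were seen, called 5 of 10 members higher and none lower, beside 25.0% of all genes higher and 11.8% lower. G6pdx rose by 0.81 (log2, SE 0.12, limma adjusted p = 0.000659), Srxn1 by 1.06 (SE 0.25, limma adjusted p = 0.00792) and Nqo1 by 0.78 (SE 0.16, limma adjusted p = 0.00358). G6pdx and Srxn1 were higher in all 6 injured libraries than in all 6 sham libraries, which held for 12.7% of all genes, while 4.11% were lower in all 6. Hmox1 rose by 0.96 (SE 0.30, limma adjusted p = 0.0306) and Nfe2l2 by 0.40 (SE 0.12, limma adjusted p = 0.0285), and both calls depended on single libraries. Hmox1 was not called without CKO IRI 7 (limma adjusted p = 0.0611), CKO IRI 29 (0.0662), WT IRI 13 (0.0868), WT IRI 24 (0.0955) or CKO sham 2 (0.0603). Nfe2l2 was not called without CKO IRI 7 (limma adjusted p = 0.0856), CKO IRI 29 (0.07) or WT IRI 24 (0.126), nor after quantile normalization (0.0529) or trimmed-mean scaling (0.1). The other members, Keap1 (0.22, limma adjusted p = 0.108), Gclc (-0.34, 0.169), Gclm (-0.10, 0.713), Gsr (0.01, 0.957) and Gss (-0.13, 0.501), did not pass.

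Injured libraries of one group differed from each other by more than many group differences. In CKO IRI the library 29 was highest for 7 of the 10 members, CKO IRI 7 for Gclc and Gclm, and CKO IRI 15 for Gss. Relative to the CKO sham mean, CKO IRI 29 stood at 4.58 times for Srxn1, 3.50 times for Hmox1, 3.21 times for Nqo1, 2.74 times for G6pdx and 1.83 times for Gsr, but at 0.618 times for Gclc and 0.748 times for Gclm. CKO IRI 7 stood at 1.44 times for Gclc and 1.68 times for Gclm, with Srxn1 at 2.12 times and Hmox1 at 1.73 times. CKO IRI 15 lay nearest to sham, between 0.90 and 1.67 times for all 10 members. In WT the libraries 13 and 24 held Hmox1 at 3.28 and 1.98 times and Srxn1 at 2.74 and 2.18 times the WT sham mean, and WT IRI 49 held them at 1.08 and 1.11 times. WT IRI 49 nonetheless had the highest Nqo1 of its group, at 1.79 times.

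**Figure D3:**
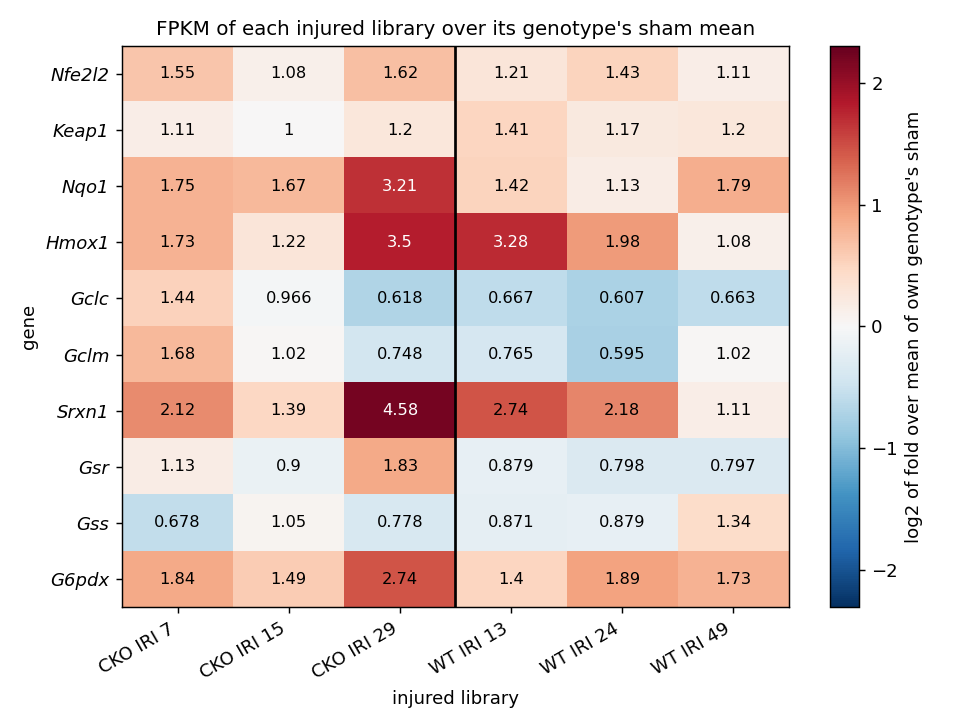
FPKM of each injured library (columns, CKO IRI left, WT IRI right) divided by the mean of its own genotype's sham libraries, for each gene (rows), with the fold printed in each cell and the color on a log2 scale. CKO IRI 29 has the largest folds for Srxn1, Hmox1, Nqo1 and G6pdx, and a fold of 0.618 for Gclc.

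Summed markers of 8 tubular injury genes and 10 proximal tubule genes differed between the same libraries. The injury sum was 4980, 2700 and 7640 FPKM in CKO IRI 7, 15 and 29, against 1160 to 1430 FPKM in CKO sham, and 6690, 7420 and 4720 FPKM in WT IRI 13, 24 and 49, against 1230 to 1320 FPKM in WT sham. The proximal tubule sum was 5720, 7910 and 3430 FPKM in CKO IRI 7, 15 and 29, against 10300 to 11500 FPKM in CKO sham. It was 2190, 2490 and 5780 FPKM in WT IRI 13, 24 and 49, against 9850 to 10100 FPKM in WT sham. Of the injury genes 7 of 8 were called higher in CKO and 8 of 8 in WT, beside 6.60% and 23.5% of all genes. Of the proximal tubule genes 1 of 10 was called lower in CKO and 10 of 10 in WT, beside 2.02% and 11.8% of all genes. The mean FPKM of all 10 was nonetheless lower in CKO IRI than in CKO sham. Lrp2 (-0.92, limma adjusted p = 0.0505) and Ass1 (-0.87, 0.0595) were lower there without overlap and did not pass. CKO IRI 15 and WT IRI 49, in which Srxn1 and Hmox1 were nearest to sham, had the lowest injury sum and the highest proximal tubule sum of their groups. Each of the 8 injury genes was lowest in these libraries of its group, but the proximal tubule genes did not all follow their sum. Kap alone held 4360 FPKM of that sum in CKO IRI 15. Slc5a2 was lowest in CKO IRI 15 (90.4 FPKM) and WT IRI 49 (109 FPKM). Slc22a6 and Slc13a3 were highest in CKO IRI 29 (175 and 235 FPKM). The part of these marker levels in the members' values was not tested.

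Between CKO sham and WT sham kidneys none of the 10 members passed the limma test, beside 0.0401% of all genes called higher and 0.0962% lower. At an unadjusted p under 0.05 there were 2 members, against 17.8% of all genes. Gss was higher, at 217, 185 and 180 FPKM in CKO sham 1, 2 and 3, against 154, 132 and 162 FPKM in WT sham 1, 2 and 3, a difference of 0.38 (log2, SE 0.14, 95% interval 0.07 to 0.68, limma adjusted p = 0.21). Gsr was lower, with its sham values given above, a difference of -0.36 (SE 0.14, 95% interval -0.67 to -0.04, limma adjusted p = 0.238). Gss and Gsr were the members whose sham groups did not overlap, 2 of 10 beside 28.4% of all genes in either direction. For Nfe2l2 the interval was -0.33 to 0.22, for Nqo1 -0.13 to 0.57 and for Gclc -0.34 to 0.45, so larger differences than these are not covered by the intervals.

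After injury, no member passed the limma test between libraries labelled CKO IRI and WT IRI, beside 0.00802% of all genes called higher and 0.00802% lower. Nqo1 was higher in all 3 libraries labelled CKO IRI than in the 3 labelled WT IRI, as were 7.11% of all genes, while 11.5% were lower without overlap and no member was. Its difference was 0.78 (log2, SE 0.28, 95% interval 0.17 to 1.40, limma adjusted p = 0.351), with an unadjusted limma p of 0.0168. No other member was under 0.05 unadjusted, a level that 12.6% of all genes reached. Gclc differed by 0.64 (SE 0.31, interval -0.05 to 1.33, limma adjusted p = 0.425) and Gclm by 0.61 (SE 0.34, interval -0.14 to 1.35, limma adjusted p = 0.474). Hmox1 and Srxn1 differed by 0.03 and 0.04, with intervals of -1.14 to 1.20 and -0.93 to 1.00, which include large differences in either direction. No member passed the interaction test of the injury change between genotypes, beside 0.00802% of all genes called higher and 0.00802% lower. None was under 0.05 unadjusted, a level that 17.7% of all genes reached. The 95% intervals were wide, at -0.14 to 1.27 for Nqo1 and -0.08 to 1.21 for Gsr. The interaction, the CKO change minus the WT change, was 0.57 for Nqo1 (limma adjusted p = 0.364), 0.57 for Gsr (0.33), 0.58 for Gclc (0.409) and 0.50 for Gclm (0.509). With a variance weight for each library the interaction of Gclc was 1.16 (limma adjusted p = 0.0445) and its difference between injured genotypes 1.08 (0.0402). Under that setting far more of all genes were called in both comparisons than the 0.00802% each way above, with the counts given below. Gclc had 250 and 168 FPKM in CKO IRI 7 and 15, but 108 FPKM in CKO IRI 29. The last value lay within the WT IRI range of 99.8 to 110 FPKM.

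The deposited transcripts of Keap1 and Gss shifted between libraries more than their sums. Of 5 Keap1 transcripts, Keap1-202 (3614 bases) held 66.1%, 66.5% and 68.1% of the gene's FPKM in CKO IRI 7, 15 and 29, against 65.6%, 30.6% and 21.5% in CKO sham 1, 2 and 3. It held 57.3%, 79.0% and 70.0% in WT IRI 13, 24 and 49, against 53.1%, 33.5% and 46.6% in WT sham 1, 2 and 3. The injured libraries were higher than the sham libraries in each genotype, though CKO sham 1 was within 0.5 of a percentage point. The share of all transcripts that separate in this way is not given here, so how unusual this is cannot be told. Keap1-205 (3151 bases) held 34.4% in CKO sham 1 and 36.1% in WT sham 1, and 6.07% or less in the other 10 libraries. With the most abundant transcript in place of the sum, Keap1 differed by 0.91 in CKO and 0.87 (log2) in WT, neither past the threshold, and by 0.89 (limma adjusted p = 0.0178) over both genotypes. For Gss, Gss-203 (1724 bases) held 48.0% in WT IRI 13 and 55.7% in CKO IRI 7, where Gss-201 (1963 bases) held 50.2% and 38.2%. In WT sham 2 these shares were 71.5% and 22.1%, and in the other 9 libraries Gss-203 held 89.0% to 94.5%. These shares are the authors' estimates of how reads divide between overlapping transcripts, and no error of that division was deposited.

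**Figure D4:**
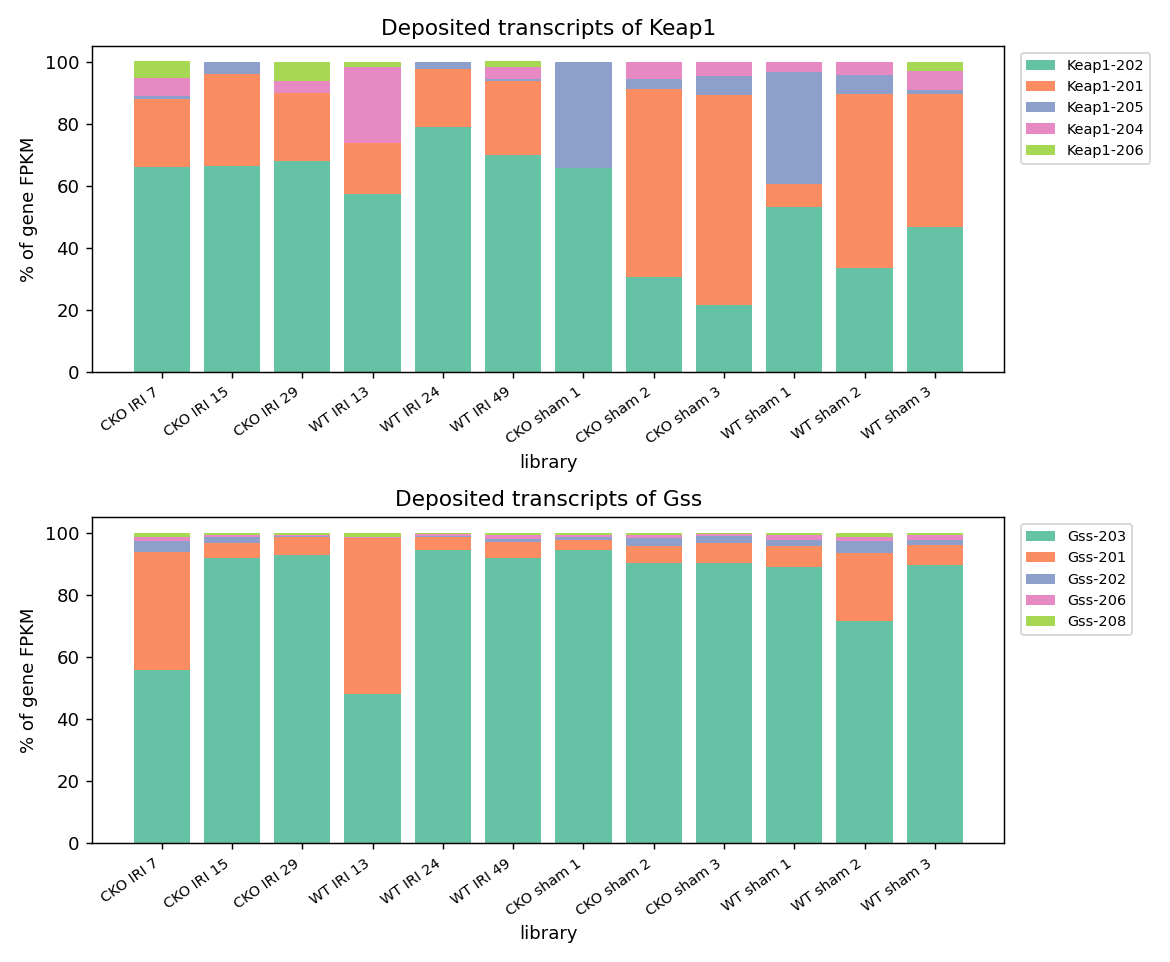
Share of each deposited transcript in the gene's summed FPKM (y axis, percent) for Keap1 and Gss in the 12 libraries (x axis, CKO IRI, WT IRI, CKO sham, WT sham from left). Gss-201 takes 50.2% in WT IRI 13 and 38.2% in CKO IRI 7, and 22.1% or less elsewhere.

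Other genes of the NRF2 system were read from lists that name no member. Of 10 tested partners and regulators of NRF2, 1 was called higher in CKO, beside 6.60% of all genes, with a median log2 change of 0.04. In WT 2 were called higher and 1 lower, shares near the 23.5% and 11.8% of all genes, with a median of 0.04. Maff, a small MAF that dimerizes with NRF2, had 6.69, 3.19 and 7.19 FPKM in CKO IRI 7, 15 and 29, against 1.43, 1.07 and 1.42 FPKM in CKO sham 1, 2 and 3. It had 16.4, 12.3 and 6.08 FPKM in WT IRI 13, 24 and 49, against 1.24, 1.61 and 1.92 FPKM in WT sham 1, 2 and 3. Maff rose by 1.48 (log2, SE 0.29, limma adjusted p = 0.0125) in CKO and by 2.19 (SE 0.30, limma adjusted p = 0.000615) in WT. The CKO call was lost without CKO IRI 7 (limma adjusted p = 0.125), CKO sham 2 (0.0686) or CKO sham 3 (0.0545), and the WT call held in each alternative run. Mafg (0.57, limma adjusted p = 0.0412) and Cul3, the ligase scaffold that KEAP1 uses (-0.44, limma adjusted p = 0.0496), were the other WT calls. Mafg was not called without any one of the 3 WT sham libraries, WT IRI 13, WT IRI 24, CKO IRI 7 or CKO IRI 15, and Cul3 kept its call only without WT sham 1, CKO sham 1 or CKO sham 2.

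Among 25 tested further NRF2 targets, 4 were called higher and 1 lower in CKO, beside 6.60% and 2.02% of all genes, and the median log2 change was 0.22. In WT 7 were called higher and 4 lower, shares near the 23.5% and 11.8% of all genes, and the median was 0.04. Akr1b8, an aldo-keto reductase, had 22.5, 12.4 and 57.2 FPKM in CKO IRI 7, 15 and 29, against 2.45 to 3.10 FPKM in CKO sham, and 89.8, 75.0 and 29.1 FPKM in WT IRI 13, 24 and 49, against 1.29 to 2.08 FPKM in WT sham. It rose by 2.80 (log2, SE 0.44, limma adjusted p = 0.00335) in CKO and 4.54 (SE 0.46, limma adjusted p = 9.05e-05) in WT. Ptgr1, a reductase of lipid aldehydes and enones, rose by 0.97 in CKO (limma adjusted p = 0.014) and 1.66 in WT (0.000311). Cbr3, a carbonyl reductase, rose by 2.70 in CKO (limma adjusted p = 0.0215) and by 2.21 in WT (0.0198). Abcc3, an efflux transporter, fell by 1.78 in CKO (limma adjusted p = 0.0318) and by 2.80 in WT (0.00135). In WT Ephx1, the microsomal epoxide hydrolase, rose by 0.68 (0.00161). Ephx1 was -1.01 (not called) when its most abundant transcript stood for the gene. The CKO count higher was 1 without CKO IRI 7, CKO sham 2 or CKO sham 3 and 2 without CKO IRI 29. The WT count lower was 2 without WT IRI 24, WT IRI 49 or WT sham 1.

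Genes that supply, break down or carry glutathione and its precursors were mostly lower in WT: 13 of 22 were called lower and 1 higher, beside 11.8% and 23.5% of all genes, with a median of -0.58 (log2) beside 0.12 over all genes. In CKO 1 was called lower and none higher, beside 2.02% and 6.60% of all genes, with a median of -0.25 beside 0.08. Ggt1, the brush border enzyme that opens glutathione breakdown, had 313, 302 and 228 FPKM in CKO IRI 7, 15 and 29, against 317, 430 and 404 FPKM in CKO sham 1, 2 and 3. It had 120, 136 and 283 FPKM in WT IRI 13, 24 and 49, against 464, 421 and 463 FPKM in WT sham 1, 2 and 3. Ggt1 fell by 1.43 (log2, SE 0.24, limma adjusted p = 0.0016) in WT. Slc3a1, a cystine transporter subunit (-1.74, limma adjusted p = 0.00129), the dipeptidase Dpep1 (-1.59, 0.00157) and the methyltransferase Gnmt (-1.81, 0.00195) also fell in WT. In CKO Ggt1 was -0.45 (limma adjusted p = 0.264) and Gnmt -0.70 (0.188). None of the 22 genes was called in the interaction of genotype and injury, beside 0.00802% of all genes higher and 0.00802% lower. Ggct, gamma-glutamylcyclotransferase, was the member of this list called in CKO (-1.09, limma adjusted p = 0.0183), and Dpep1 there was -0.90 (limma adjusted p = 0.0554). WT falls numbered 8 without WT IRI 13 and 5 without WT IRI 24. In CKO, leaving out CKO sham 1 gave 5 falls, leaving out CKO IRI 15 gave 3, and none was called when CKO sham 2, CKO IRI 7 or CKO IRI 29 was left out. Several of these genes are typical of the proximal tubule, whose summed markers are given above, and the part of those markers in these falls was not tested.

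A list of 13 tested genes of the pentose phosphate pathway, folate cycle and other NADPH-linked routes also held enzymes that make no NADPH themselves, among them Tkt, Taldo1, Rpia, Rpe, Pgls and Mthfd1l. In CKO 4 were called higher and none lower, beside 6.60% and 2.02% of all genes, with a median log2 change of 0.51. In WT 6 were called higher and 2 lower, beside 23.5% and 11.8% of all genes, with a median of 0.23. Pgd, the pentose phosphate enzyme that follows G6pdx and its product's hydrolysis, had 86.1, 64.9 and 160.4 FPKM in CKO IRI 7, 15 and 29, against 44.5, 50.8 and 52.8 FPKM in CKO sham 1, 2 and 3. It had 147, 107 and 86.7 FPKM in WT IRI 13, 24 and 49, against 58.1, 52.2 and 55.6 FPKM in WT sham 1, 2 and 3. Pgd rose by 0.96 (log2, SE 0.25, limma adjusted p = 0.0416) in CKO and by 0.99 (SE 0.26, limma adjusted p = 0.0138) in WT, and in both genotypes all injured libraries were above all sham libraries. The mitochondrial folate enzymes Mthfd2 and Mthfd1l rose by 1.17 and 1.41 in CKO (limma adjusted p = 0.00908 and 0.0148) and by 1.76 and 2.35 in WT (0.000383 and 0.000388). Mthfd1l had 0.273 to 0.594 FPKM in CKO sham and 0.126 to 0.299 FPKM in WT sham, below the filter of 1 FPKM. It had 1.47 to 4.38 FPKM in CKO IRI and 2.99 to 8.93 FPKM in WT IRI. Mthfd1l thus entered the test through injured libraries, and its log2 size depends on the 1 FPKM added before the log. H6pd, the endoplasmic reticulum counterpart of G6pdx, rose by 1.03 (limma adjusted p = 0.0109) in CKO and by 0.62 (0.0358) in WT. The cytosolic folate enzyme Mthfd1 fell by 0.89 (limma adjusted p = 0.00209) in WT, and its CKO value was -0.21 (0.445). Rises in CKO numbered 0 without CKO IRI 7, 1 without CKO sham 3 and 2 without CKO sham 2 or CKO IRI 29. Rises in WT numbered 2 and falls 1 without WT IRI 13 or WT IRI 24, and falls also 1 without WT sham 1.

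The list for heme and its breakdown had 6 tested genes. None was called in CKO, beside 6.60% of all genes higher and 2.02% lower, with a median log2 change of 0.21. In WT 3 were called higher and 1 lower, beside 23.5% and 11.8% of all genes, with a median of 0.32. Blvrb, a biliverdin reductase that acts after HMOX1, rose by 1.06 (log2, SE 0.31, limma adjusted p = 0.0223) in WT, Blvra by 0.53 (0.0283) and the hemoglobin-binding protein Hp by 1.39 (0.00267). Fech, which makes heme by inserting iron into protoporphyrin, fell by 0.57 (limma adjusted p = 0.0314). Only Hp of these passed without WT IRI 13 or WT IRI 24, and no fall was called without WT IRI 49 or WT sham 2. Hp had 0.151 to 0.291 FPKM in WT sham, below the filter of 1 FPKM, and 1.23 to 4.91 FPKM in WT IRI. Hp thus entered the test through injured libraries, and its log2 size depends on the 1 FPKM added before the log. In CKO 1 gene rose without CKO sham 1, CKO IRI 15, WT IRI 13 or WT IRI 24.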

How the data were processed

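Bulk RNA libraries of renal cortex were prepared from total RNA with random priming and dUTP second strands, per the labels' protocols. The authors deposited 1 table of 25790 transcripts in 12 libraries, read here as FPKM, since its header names no unit. TPM would differ by 1 factor per library. HISAT2 2.1.0, StringTie and cutadapt are the tools named, per the submitters' processing notes, and the build named there is GRCh38 (human), whereas the identifiers are mouse. In each row at least 1 group mean was 0.5 FPKM or more.

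Identifiers were matched without version to GENCODE M21 (GRCm38): 25740 matched, and the 50 others held at most 0.10% of any library. Values were summed per gene, and genes with 1 FPKM or more in at least 3 libraries were kept. On the log2(FPKM + 1) scale, limma 3.58.1 (R 4.3.3) modelled 1 mean and 1 variance weight per group with a mean-variance trend, two-sided. Low values multiplied by transcript length lay within 0.1 of a whole multiple of the best step for 39.7% to 55.6%. By chance 20.0% would do so for any given step, and the best step was picked to raise this share. Since many values lay off the multiples, reads could not be recovered, depth is unknown and the values were tested on a log scale only. The members, lists, tests and the variance weights were chosen with earlier results of these data known. Pathway genes named are among the 4 of smallest p per list and injury comparison, or were called, and Osgin1 was chosen after its values were seen. Library numbers 1 to 3 are shared by the sham groups, and the labels do not say that they pair animals. Alternatives were another pseudocount (0.1), no filter or a filter of 5 FPKM, quantile normalization, trimmed-mean scaling (TMM factors computed from the FPKM values), other variance models, fits of only the groups compared, other transcript choices, a replicate block and leaving out each library. The genes most like Keap1 in level are not reported here.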

Additional observations from a re-analysis of the deposited data

How the results depend on the processing

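The members' counts kept to within 1.5 times under another pseudocount, both filters, quantile normalization, one spread shared by all libraries, and both transcript choices. In WT (1 higher, none lower) 1 member was lower after trimmed-mean scaling or with only those groups fitted, and 3 were higher and 1 lower with a weight per library. In CKO (2 higher) the count was 4 with a weight per library and 0 with only those groups fitted. A weight per library called 1 member higher between injured genotypes and 1 in the interaction. Leaving out each library gave 0 to 3 higher and 0 to 1 lower in WT, 0 to 4 higher in CKO, and 3 to 5 higher over both genotypes. Of 1310 values of single members under alternatives, 18 lost and 19 gained a call, and 53 changed sign with neither value called. Ephx1 in WT was -1.01 with its most abundant transcript. The causes of these shifts were not tested.

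The sham groups share replicate numbers 1 to 3. Deviations of same-numbered libraries correlated at 0.004, -0.031 and -0.002 over genes, so the numbers were not taken as pairs. With a replicate block no member was called (0 higher, 0 lower), and calls over all genes between sham groups were 0 higher and 0 lower, beside 5 and 12 without it.

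Counts over all genes varied too. In CKO they were 823 higher and 252 lower, beside 2275 and 1276 with a weight per library, 406 and 122 with only those groups fitted, 390 lower after quantile normalization and 147 lower with the most abundant transcript. Leaving out libraries gave 221 to 1172 higher and 30 to 494 lower in CKO, and 1353 to 2886 higher and 476 to 1522 lower in WT, beside 2936 and 1472. Between sham groups they were 14 and 19 with no filter, 56 and 68 with a weight per library, 0 and 0 with one shared spread, 10 higher with the most abundant transcript, 3 lower with only those groups, and 0 to 35 and 0 to 54 without single libraries. Between injured genotypes (1 and 1) a weight per library gave 321 and 402, one shared spread 3 and 2, only those groups 0 and 0, and the most abundant transcript 5 higher. In the interaction (1 and 1) they were 347 and 494 with a weight per library, and 5 higher with the most abundant transcript. A filter of 5 FPKM left 0 higher in both. Over both genotypes 2254 were lower with a weight per library, beside 1474. Replicates number 3 per group and depth is unknown, so no floor for low values is given.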

Other observations

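The genes most like a member in level over the 12 libraries, by Pearson correlation of log2(FPKM + 1), are given for 9 of the 10 members, and for 2 of these they included another gene of the lists above. For Srxn1 they were the nucleolar helicase Ddx21 (0.962), Heatr5a (0.959) and Pgd (0.959). For Gclm they were Mat2a, which makes S-adenosylmethionine (0.895), Gpd2 (0.881) and Decr2 (0.868). For G6pdx they were xanthine dehydrogenase Xdh (0.968), the proliferation-linked Atad2 (0.968) and Rbl1 (0.966), and for Nqo1 the fatty acid binding protein Fabp1 (0.929), Atad2 (0.92) and Phf10 (0.916). For Hmox1 they were Ythdf1 (0.953), Kansl2 (0.952) and Cyp3a13 (0.944), for Nfe2l2 Pak2 (0.95), Acsl4 (0.948) and Chmp2b (0.941), and for Gclc Rffl (0.889), Mfap4 (0.868) and Lrrc31 (0.864). For Gsr they were Bpgm (0.907), Carnmt1 (0.87) and Prkar2a (0.869), and for Gss Bola3 (0.947), Pdzd11 (0.94) and Lgals9 (0.912). These values describe 12 libraries that share groups, and the highest were picked out of 12469 genes.

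Osgin1, an NRF2 target picked out after its values were seen, had 33.7 FPKM in CKO sham 1, against 1.92 to 9.83 FPKM in the other 11 libraries.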
